A study of Drosophila melanogaster with 90 samples.

Results

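The biogenic amines of the fly head are made and handled by a small set of genes, and 8 of them were followed here across 24 h after mating: ple, Ddc, Hn, Vmat, DAT, SerT, Tdc2 and Tbh. They were taken by their FlyBase symbols from the gene count table, in which all 8 had a row, out of 9027 genes in all. The samples were heads of Canton-S females of Drosophila melanogaster, sequenced in bulk from poly(A)-selected RNA. Wildtype-mated females had been with males that make Sex Peptide, SP-null-mated females with males that lack this seminal fluid peptide, and virgin females were frozen in parallel at the same times of day. All flies lived at 25 °C in a cycle of 12 h of light and 12 h of dark, and matings took place in the morning. Heads were collected at 10 times: at 0.5 h, hourly up to 6 h, and at 8, 12 and 24 h. The whole series was run in 3 biological repeats, A, B and C. The labels give neither the age of the females nor the number of heads per library. There were 28 wildtype-mated, 30 SP-null-mated and 29 virgin libraries, so that 27 groups had 3 libraries and 3 groups had 2.

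Dopamine is made in flies by a pair of enzymes: the tyrosine hydroxylase encoded by ple (pale) turns tyrosine into DOPA, and the DOPA decarboxylase encoded by Ddc removes its carboxyl group. Ddc also makes serotonin. Hn (Henna) encodes the phenylalanine hydroxylase, which supplies tyrosine. Tdc2, the neuronal tyrosine decarboxylase, makes tyramine, and Tbh, the tyramine beta-hydroxylase, turns tyramine into octopamine. Vmat loads the amines into synaptic vesicles, while DAT and SerT take dopamine and serotonin back up at the cell surface. Dopamine also feeds the hardening and darkening of cuticle, so ple and Ddc are used in epidermis as well as in neurons, and Hn is used in fat body. A whole head holds all of these tissues. The dopamine made in neurons acts in arousal, feeding and mating behaviour, and octopamine neurons are known for their part in egg laying.

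Total counts ran from 15411046 to 103387056 per library, with a median of 19740478. Levels are given in CPM, the count of a gene divided by the library's total in units of 10 to the power 6 after scaling by the trimmed mean of M-values (TMM). Markers of neurons (5 of 5), glia (4 of 4), photoreceptors (6 of 6), head fat body (5 of 5) and muscle (5 of 5) were present in the table, as were 3 of 4 cuticle and epidermis markers. Of the midgut and ovary markers, 1 of 5 and 1 of 6 were found. The ovary marker nos was not looked up, as its symbol was not matched to a gene. In a principal component analysis, repeats A and C of wildtype-mated females at 24 h stood apart from the other libraries. Virgin repeat A at 4 h also differed from repeats B and C in the midgut marker, at 83.5 CPM against 10.3 and 11.0 CPM. A gene was called when its adjusted p was below 0.05 in edgeR's quasi-likelihood test, with Benjamini-Hochberg adjustment over the 9024 genes tested. These p-values rest on the spread between repeats within groups, estimated jointly over all 30 groups and not for each group alone. The share of all genes called in a comparison is given beside the first call of a member, as its background.

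The members covered a wide range of levels. Per kilobase of exon, the median level over the 87 libraries was 312 CPM for Hn, 74.8 for Ddc, 42.3 for Vmat, 36.3 for ple, 9.60 for Tbh, 6.86 for SerT, 5.40 for Tdc2 and 5.16 CPM for DAT. Most neighbours in this order were well separated: Hn lay above Ddc, and Ddc above Vmat, in all 87 libraries, and ple above Tbh likewise. Tbh lay above SerT in 86 and SerT above Tdc2 in 82 of 87 libraries. Vmat lay above ple in 62 of 87 libraries and Tdc2 above DAT in 53 of 87, so the members of these last pairs were not separated beyond their spread. The highest library stood 4.83-fold above the lowest for ple, against 1.27-fold for Vmat, 1.52-fold for Tbh and 1.56-fold for DAT.

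The member that changed most was ple. Its level fell in the course of the day in all 3 treatments and was back near its starting level at 24 h, and in wildtype-mated females the fall was smaller. At 12 h ple RNA was 1.65-fold higher in wildtype-mated than in SP-null-mated heads and 1.82-fold higher than in virgin heads. The gene lies on chromosome arm 3L at 6713356 to 6719525 (BDGP6, minus strand), and no annotated gene overlaps it.

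At 0.5 h, repeats A, B and C held 183, 161 and 189 CPM of ple in wildtype-mated heads, 149.6, 180.0 and 155 CPM in SP-null-mated heads and 179.6, 154 and 214 CPM in virgin heads. The 3 treatments overlapped. At 5 h the level was 148, 131 and 152 CPM in wildtype-mated heads, 85.3, 92.9 and 123 CPM in SP-null-mated heads and 86.01, 97.2 and 88.4 CPM in virgin heads. Every wildtype-mated library was then above every other library of that time, although the difference from SP-null-mated heads was not called (log2 fold change 0.52 ± 0.18, adjusted p = 0.175 in edgeR's quasi-likelihood test, background 0.754% of genes). At 6 h the level was 100.2, 89.9 and 158 CPM in wildtype-mated heads, 74.97, 78.1 and 71.4 CPM in SP-null-mated heads and 71.7 and 100.5 CPM in the 2 virgin libraries. Wildtype-mated libraries stayed above the SP-null-mated ones and overlapped the virgin ones.

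At 8 h ple stood at 92.0, 63.9 and 107 CPM in wildtype-mated heads, 49.6, 52.3 and 56.4 CPM in SP-null-mated heads and 49.4, 62.5 and 50.5 CPM in virgin heads. The groups at 12 h were 93.6, 114 and 89.6 CPM in wildtype-mated heads, 65.3, 58.4 and 55.8 CPM in SP-null-mated heads and 58.8, 53.02 and 50.9 CPM in virgin heads. At both times no wildtype-mated library overlapped either other treatment, while SP-null-mated and virgin libraries overlapped. At 24 h the level was 180.1, 232 and 182 CPM in wildtype-mated heads, 142, 184 and 191 CPM in SP-null-mated heads and 207, 211 and 196 CPM in virgin heads, with overlap between wildtype-mated heads and each other treatment. Every SP-null-mated library was then below every virgin library, by a log2 fold change of -0.25 that was not called (adjusted p = 0.857, background 0.0554% of genes). In bulk heads, a smaller number of cells that use ple and less ple RNA per cell cannot be told apart.

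**Figure D1:**
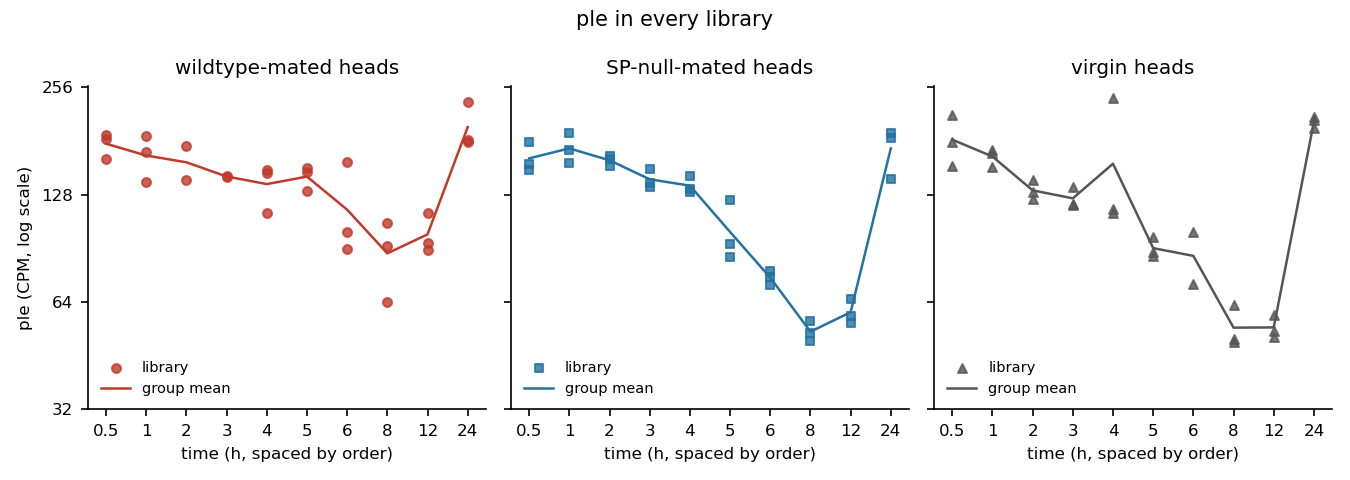
Level of ple in CPM against hours after mating, 1 point per library and a line through the group means, for wildtype-mated, SP-null-mated and virgin females. Wildtype-mated libraries lie above both other treatments at 5, 8 and 12 h, with group means at 12 h of 98.9, 59.8 and 54.2 CPM in wildtype-mated, SP-null-mated and virgin heads.

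The fall of ple with time was called in each treatment. Over the 10 times, the adjusted p of the edgeR quasi-likelihood test for any change was 5.7e-07 in wildtype-mated, 8.29e-15 in SP-null-mated and 1.2e-15 in virgin females. Such changes were frequent: 52.6% of all genes were called in wildtype-mated, 36.5% in SP-null-mated and 29% in virgin females. Against the mean of 0.5 and 1 h, called the first hour below, ple at 8 h was lower by a log2 fold change of -0.97 ± 0.16 (SE) in wildtype-mated, -1.66 ± 0.17 in SP-null-mated and -1.67 ± 0.17 in virgin females. At 12 h the log2 fold change was -0.79 ± 0.16 in wildtype-mated, -1.48 ± 0.16 in SP-null-mated and -1.67 ± 0.17 in virgin females. All 6 of these changes were called, where the background was 26.4% of genes at 8 h and 35.1% at 12 h in wildtype-mated, 18.4% and 29.4% in SP-null-mated and 15.7% and 25% in virgin females. All 6 remained called in each of the 11 alternatives run. At 24 h ple was not called against the first hour in any treatment, with log2 fold changes of 0.21 in wildtype-mated, 0.05 in SP-null-mated and 0.25 in virgin females (background 39.7%, 7.88% and 4.65%, given for wildtype-mated, SP-null-mated and virgin females).

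Between treatments, a difference of ple at any of the 10 times was called for wildtype-mated against virgin (adjusted p = 4.28e-05, background 28.6% of genes) and against SP-null-mated females (adjusted p = 0.000184, background 18.5%), in edgeR's quasi-likelihood test. No such difference was called between SP-null-mated and virgin females (adjusted p = 0.705, background 7.06%). The comparisons of wildtype-mated females share their libraries and are not independent of each other. Averaged over the times, the log2 fold change was 0.29 ± 0.06 against virgin (95% interval 0.17 to 0.40, background 26.1%) and 0.29 ± 0.06 against SP-null-mated females (0.18 to 0.40, background 10.8%). Both were called. The interval of the average between SP-null-mated and virgin females was -0.12 to 0.11 (background 2.03%).

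At single times, wildtype-mated females had more ple than virgins at 5 h (log2 fold change 0.67 ± 0.18, adjusted p = 0.0258), 8 h (0.69 ± 0.18, adjusted p = 0.0142) and 12 h (0.87 ± 0.18, adjusted p = 0.000579), by edgeR's quasi-likelihood test. The background of called genes at these times was 2.67%, 3.67% and 6.32%. Against SP-null-mated females, ple was higher at 6 h (0.63 ± 0.18, adjusted p = 0.0288), 8 h (0.73 ± 0.18, adjusted p = 0.00602) and 12 h (0.73 ± 0.18, adjusted p = 0.0044), where the background was 3.31%, 5.87% and 9.82%. The difference from virgins at 12 h remained called without each repeat, at 0.73 to 0.97. The other calls at single times were lost in some fits that left out a repeat. Without repeat B the 12 h difference from SP-null-mated females was 0.59 (adjusted p = 0.129 in edgeR's quasi-likelihood test). The differences at 8 h lost their call without A or C. Those at 5 and 6 h lost it without any single repeat, although the 5 h difference from virgins was 0.61 to 0.77 in these fits. At 6 h, repeat C carried much of the difference from SP-null-mated females, which was 0.31 without it.

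The fall itself also differed between treatments. A test of whether the difference changed with time called ple for wildtype-mated against virgin females (adjusted p = 0.00482 in edgeR's quasi-likelihood test, background 14.2% of genes; lost without repeat A or C) and against SP-null-mated females (adjusted p = 0.029, background 11.8%; lost without any repeat). From the first hour to 12 h, the log2 change of ple was less negative in wildtype-mated than in virgin females by 0.88 ± 0.22 (adjusted p = 0.0054 in edgeR's quasi-likelihood test, background 6.94% of genes) and than in SP-null-mated females by 0.69 ± 0.22 (adjusted p = 0.0482, background 4.79%). The change to 8 h differed from that in virgins by 0.71 ± 0.22 (adjusted p = 0.0425, background 5.03%). Without single repeats, the 12 h difference from virgins was 0.72 to 0.99 and lost its call without B. That from SP-null-mated females was 0.39 to 0.88 over the same fits and lost its call without any repeat, and the 8 h difference from virgins lost its call without A or C. Between SP-null-mated and virgin females the change to 12 h differed by 0.19, with an interval of -0.24 to 0.63, and was not called (background 0.0111%). To 24 h, the change in wildtype-mated females differed from that in virgins by -0.04, not called (background 22.9%).

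Exon bins were followed for the parts of ple that not all of its transcripts use. Exons shared by all transcripts were not analysed here, so the bins do not show where in the gene the changes lie. The gene has 3 annotated transcripts, and a pair of neighbouring coding bins (bin 005, 6717334 to 6717426 of 3L, and bin 006, 6717553 to 6717672) belongs to ple-RB and ple-RC and not to ple-RA. In flies, a longer tyrosine hydroxylase form is known from epidermis and a shorter form from the nervous system, and the 213 bases of these bins are the coding sequence that the longer forms have in addition. The exon table listed 3 bins of ple; the third, bin 001 (6713356 to 6714037), is non-coding and belongs to ple-RC alone. A read that spans bins may be counted in each, so the share of ple counts in a bin is an index and not a transcript's share.

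At 12 h the pair of coding bins held 8.56, 12.5 and 8.62 CPM in wildtype-mated heads, 4.79, 4.21 and 3.68 CPM in SP-null-mated heads and 4.50, 3.07 and 3.57 CPM in virgin heads. All 3 wildtype-mated libraries were above the other 6. As a share of the ple count, the pair made up 9.91 ± 0.945% in wildtype-mated, 7.05 ± 0.398% in SP-null-mated and 6.82 ± 0.943% in virgin heads (SD, n = 3 each). At 0.5 h the share was 12.5 ± 1.61% in wildtype-mated, 12.3 ± 0.787% in SP-null-mated and 13.9 ± 0.190% in virgin heads, and at 24 h it was 13.2 ± 0.219% in wildtype-mated, 11.6 ± 0.931% in SP-null-mated and 12.4 ± 0.349% in virgin heads. In each treatment the mean share was lower at 12 h than at 0.5 or 24 h. At 8 h the share was 10.5 ± 0.606% in wildtype-mated, 6.56 ± 0.738% in SP-null-mated and 9.22 ± 1.13% in virgin heads; wildtype-mated and virgin libraries then overlapped, unlike at 12 h.

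**Figure D2:**
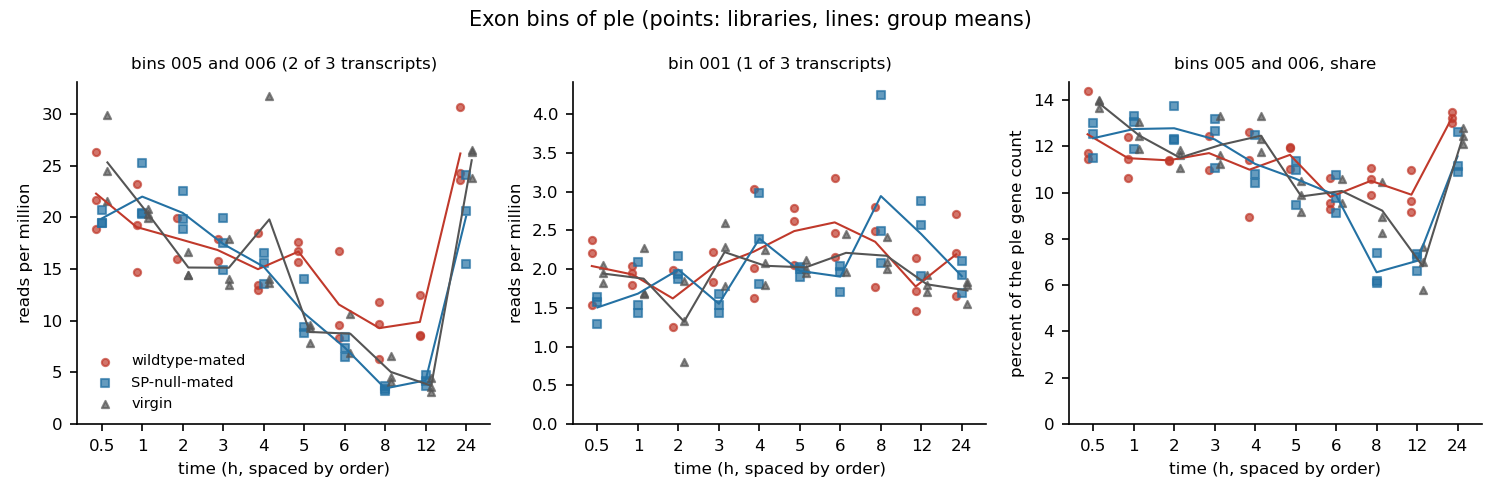
CPM in the pair of coding bins of ple (005 and 006) and their share of the ple count in percent, against hours after mating, by library with group means, for wildtype-mated, SP-null-mated and virgin females. At 12 h the mean is 9.88 CPM in wildtype-mated, 4.23 CPM in SP-null-mated and 3.71 CPM in virgin heads.

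From the first hour to 12 h, bin 005 of ple changed by a log2 fold change of -0.97 ± 0.22 in wildtype-mated, -2.42 ± 0.25 in SP-null-mated and -2.62 ± 0.25 in virgin females. Bin 006 changed by -0.999 in wildtype-mated, -2.27 in SP-null-mated and -2.51 in virgin females, and all 6 values were called in edgeR's quasi-likelihood test over the 13138 bins tested (background 6.01%, 8.16% and 5.35% of bins in wildtype-mated, SP-null-mated and virgin females). The values in wildtype-mated females lost their call without repeat A or C, and the others remained called without each repeat. The non-coding bin 001 did not follow. Its log2 fold change was -0.09 in wildtype-mated and -0.05 in virgin females, both not called. In SP-null-mated females it was 0.58 at 12 h (adjusted p = 0.0253 in the same test, lost without repeat B or C). At 8 h it was 0.87 in these females, a call lost without repeat C. Counts of bin 001 were low, at 14 to 172 per library with a median of 40. The medians of bins 005 and 006 were 137 and 157.

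Set against the other treatments at 12 h, bin 005 of ple was higher in wildtype-mated than in virgin heads by 1.52 ± 0.30 (log2 fold change, adjusted p = 0.000949 in edgeR's quasi-likelihood test, background 1.14% of bins) and than in SP-null-mated heads by 1.41 (adjusted p = 0.00258, background 1.64%). Bin 006 gave 1.35 against virgin (adjusted p = 0.00492) and 1.24 against SP-null-mated heads (adjusted p = 0.0103). Without repeat B all 4 lost their call, as did both values of bin 006 without C. The change from the first hour to 12 h of bin 005 was less negative in wildtype-mated than in virgin females by 1.65 ± 0.34 (adjusted p = 0.00478, background 0.708%), and lost its call without repeat B or C.

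Whether the bins of ple moved unequally was asked with a test of bin usage against the rest of the gene's listed bins, over 2199 genes. Usage of the ple bins changed between the first hour and 12 h in SP-null-mated females (adjusted p = 3.73e-13, background 1.96% of genes) and in virgins (adjusted p = 7.46e-09, background 1.27%), by edgeR's exon usage test. In wildtype-mated females it was called at 8 h (adjusted p = 0.00558, background 0.637%) and not at 12 h (adjusted p = 0.312, background 1.86%). Between treatments at 12 h, usage differed in wildtype-mated heads from SP-null-mated heads (adjusted p = 0.0424, background 0.273%), a call lost without repeat B or C and with no filter on low counts (adjusted p = 0.0515). It was not called against virgins at 12 h (adjusted p = 0.18, background 0.5%) or against SP-null-mated heads at 8 h (adjusted p = 0.119, background 0.0455%). Of the other members, the usage tests covered Ddc and Vmat, which were not called in any of them. Hn, SerT, Tbh, DAT and Tdc2 were not tested for usage.

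Epidermal markers were set beside these values, since the longer forms of ple are known from epidermis. Of 4 cuticle and epidermis markers, 3 were in the table, and their summed level over all libraries was 62.99 to 94.2 CPM in wildtype-mated, 60.5 to 87.5 CPM in SP-null-mated and 63.7 to 92.7 CPM in virgin heads. At 12 h the mean sum was 66.5 CPM in wildtype-mated, 68.7 CPM in SP-null-mated and 68.4 CPM in virgin heads, and none of the 3 markers was called between treatments at that time. The 5 head fat body markers (fit, Yp1, Yp2, Fbp1 and Obp99b) did differ in sum at 12 h. They summed to 82663 CPM (79456 to 85925) in wildtype-mated, 53927 CPM (52759 to 55878) in SP-null-mated and 56998 CPM (49232 to 63839) in virgin heads, without overlap of wildtype-mated with the other libraries. Of the 5, 2 were called higher in wildtype-mated heads against each other treatment, beside 4.18% of all genes against virgin and 6.49% against SP-null-mated heads. Whether this sum follows the amount of fat body was not tested. The 5 neuron markers summed to 2290 CPM (2213 to 2378) in wildtype-mated, 2596 CPM (2529 to 2719) in SP-null-mated and 2476 CPM (2470.7 to 2486.0) in virgin heads at 12 h, again without overlap of the wildtype-mated libraries, and 0 of 5 were called. The part of either tissue in the values of ple was not tested. A further library bears on ple: virgin repeat A at 4 h held 239 CPM against 114 and 116 CPM in repeats B and C, and it was the library with the high midgut marker. Without it, the average of wildtype-mated against virgin females and the fall in virgins remained called.

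**Figure D3:**
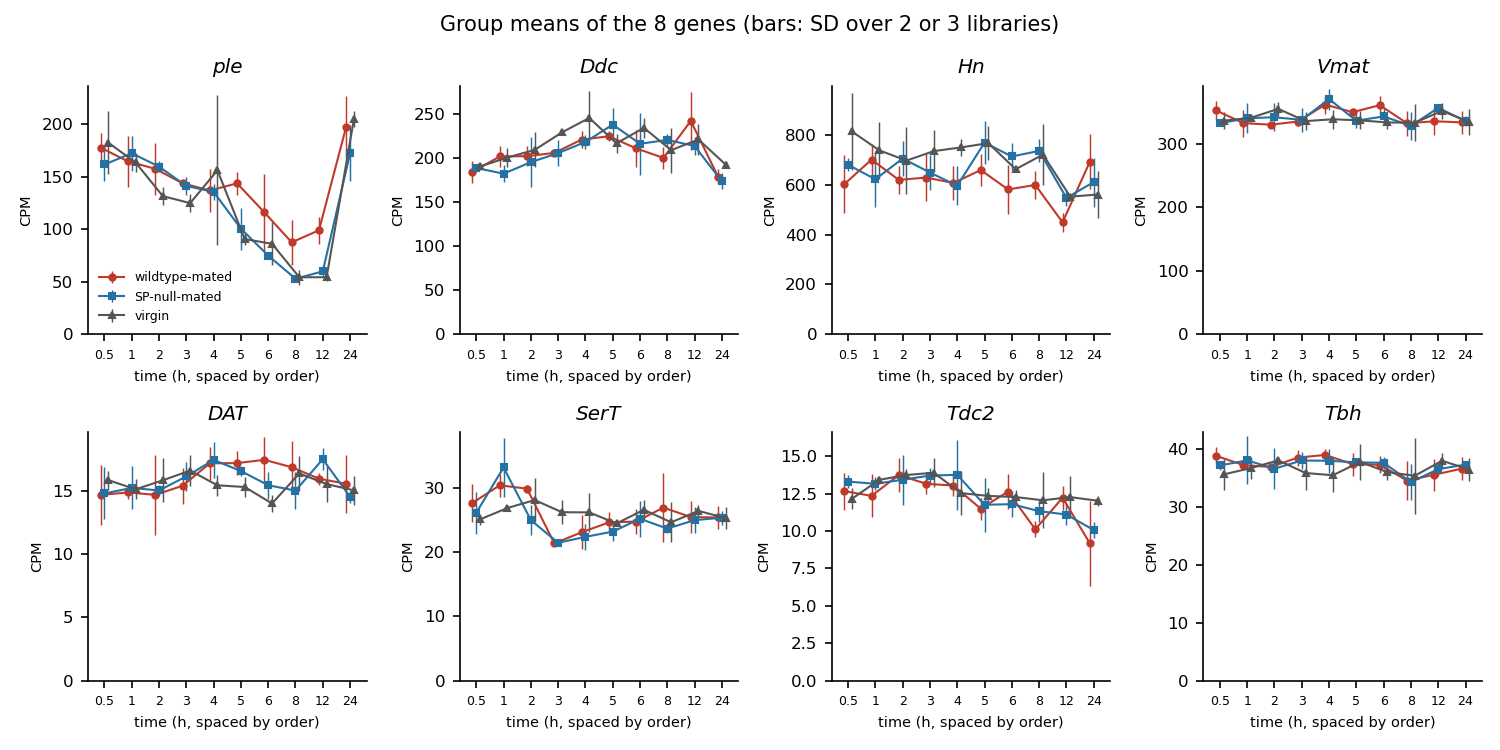
Levels of the 8 genes in CPM against hours after mating, 1 panel per gene, with the mean and SD of each group for wildtype-mated, SP-null-mated and virgin females. The curve of ple dips at 8 to 12 h in all 3 treatments, and Vmat, DAT and Tbh run level.

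The second enzyme of dopamine synthesis, Ddc, had higher means at 12 h than at 0.5 h, where those of ple were lower. Ddc averaged 184 ± 12.7 CPM in wildtype-mated, 189 ± 4.05 CPM in SP-null-mated and 190.4 ± 4.14 CPM in virgin heads at 0.5 h (SD, n = 3 each). At 12 h it averaged 242 ± 33.3 CPM in wildtype-mated, 214 ± 10.7 CPM in SP-null-mated and 221 ± 17.3 CPM in virgin heads, and at 24 h 179 ± 8.81 CPM in wildtype-mated, 173 ± 9.08 CPM in SP-null-mated and 193 ± 4.39 CPM in virgin heads. The mean of each treatment was thus higher at 12 h than at 0.5 or 24 h, and the treatments overlapped at 12 h. The highest mean fell at 12 h in wildtype-mated females alone. It fell at 5 h in SP-null-mated (238 CPM) and at 4 h in virgin females (246 CPM). The change over time was called in wildtype-mated (adjusted p = 0.00131), SP-null-mated (adjusted p = 0.000412) and virgin females (adjusted p = 0.00989) in edgeR's quasi-likelihood test. Ddc rose from the first hour to 12 h by 0.33 ± 0.08 (log2) in wildtype-mated and 0.20 ± 0.08 in SP-null-mated females. In virgins the change to 12 h was not called (background 25% of genes). The rise in wildtype-mated females was 0.20 without repeat A and then not called. That in SP-null-mated females was 0.17 to 0.25 without single repeats, and it lost its call without each of them, without the 24 h time point, with DESeq2's size factors and with DESeq2. In SP-null-mated females the change over time remained called in every alternative; in wildtype-mated females it was lost without repeat A, and in virgins without any repeat and without virgin repeat A at 4 h, which held 281 CPM of Ddc against 224 and 233 CPM. All 3 listed bins of Ddc rose in SP-null-mated females by 12 h, bin 003 by 0.40, bin 004 by 0.33 and bin 005 by 0.35 (log2). Between treatments, Ddc was called neither at any of the times nor on average, and the average of wildtype-mated against virgin females was -0.05. The gene CG10561 overlaps Ddc on the other strand; the library kit marks strand, but the strand setting of the counting is not given in the sources used here.

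Hn, the phenylalanine hydroxylase gene upstream of tyrosine, was the other member with a called average difference between treatments. Averaged over the times, Hn was lower in wildtype-mated than in virgin females by a log2 fold change of -0.19 ± 0.05 (adjusted p = 0.00186 in edgeR's quasi-likelihood test). The test over the 10 times also called it for this pair (adjusted p = 0.0119), so 2 of the 8 members, ple and Hn, were called there, beside 28.6% of all genes. No single time was called for Hn. At 0.5 h Hn stood at 515, 559 and 734 CPM in wildtype-mated heads, 712, 663 and 668 CPM in SP-null-mated heads and 694, 762 and 989.8 CPM in virgin heads, where wildtype-mated and virgin libraries overlapped. At 12 h it stood at 486, 412 and 451 CPM in wildtype-mated heads, 511, 555 and 577 CPM in SP-null-mated heads and 546, 564 and 549 CPM in virgin heads, where wildtype-mated libraries lay below all others. The 12 h differences were not called (log2 fold change -0.30 against virgin, adjusted p = 0.265, background 6.32% of genes; -0.29 against SP-null-mated heads, adjusted p = 0.22, background 9.82%). At 24 h Hn stood at 651, 611 and 819.9 CPM in wildtype-mated heads, 545, 565 and 724 CPM in SP-null-mated heads and 460.1, 575 and 649 CPM in virgin heads, and the 3 treatments overlapped. The head fat body markers, given at 12 h beside ple, were higher in sum in wildtype-mated heads at 12 h, where Hn was lowest in those heads. At 24 h they summed to 111104 CPM (104762 to 118343) in wildtype-mated, 74465 CPM (52998 to 104125) in SP-null-mated and 62786 CPM (42365 to 77521) in virgin heads, and 4 of 5 were called higher in wildtype-mated than in virgin heads and 1 of 5 than in SP-null-mated heads. Of all genes, 14.6% were then called higher against virgin and 14.4% against SP-null-mated heads. The part of fat body RNA in the values of Hn was not tested.

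The average difference of Hn between wildtype-mated and virgin females was -0.22 to -0.16 when single repeats were left out and lost its call without repeat B (adjusted p = 0.0899 in edgeR's quasi-likelihood test). The test over the 10 times lost its call without repeat A or B. Against SP-null-mated females the average of Hn was -0.11 (adjusted p = 0.117), and for SP-null-mated against virgin females -0.07 (adjusted p = 0.42). Over the 10 times, 1 of 8 members (ple) was called for wildtype-mated females set against SP-null-mated ones, beside 18.5% of genes, and with the repeats as a block Hn was called as well (2 of 8). Between SP-null-mated and virgin females the same test called 0 of 8 members, beside 7.06% of genes. From the first hour to 12 h Hn fell by 0.53 ± 0.13 (log2) in wildtype-mated and 0.49 ± 0.13 in virgin females. Without repeat C the log2 fold change in virgins was -0.34 and not called. In SP-null-mated females Hn averaged 681 CPM at 0.5 h, 623 CPM at 1 h and 548 CPM at 12 h, and this change was not called (background 29.4% of genes). At 24 h Hn was still below the first hour in virgins (log2 fold change -0.47 ± 0.13, adjusted p = 0.0228, lost without any repeat), and the change to 24 h was more positive in wildtype-mated than in virgin females by 0.56 ± 0.18 (adjusted p = 0.0175, background 22.9% of genes). That difference was 0.47 and not called without repeat A and likewise without repeat C. It was 0.38 without wildtype-mated repeats A and C at 24 h, which left repeat B alone in that group. Its change over time was called in wildtype-mated (adjusted p = 0.0156, lost without repeat B) and virgin females (adjusted p = 0.016, lost without any repeat).

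**Figure D4:**
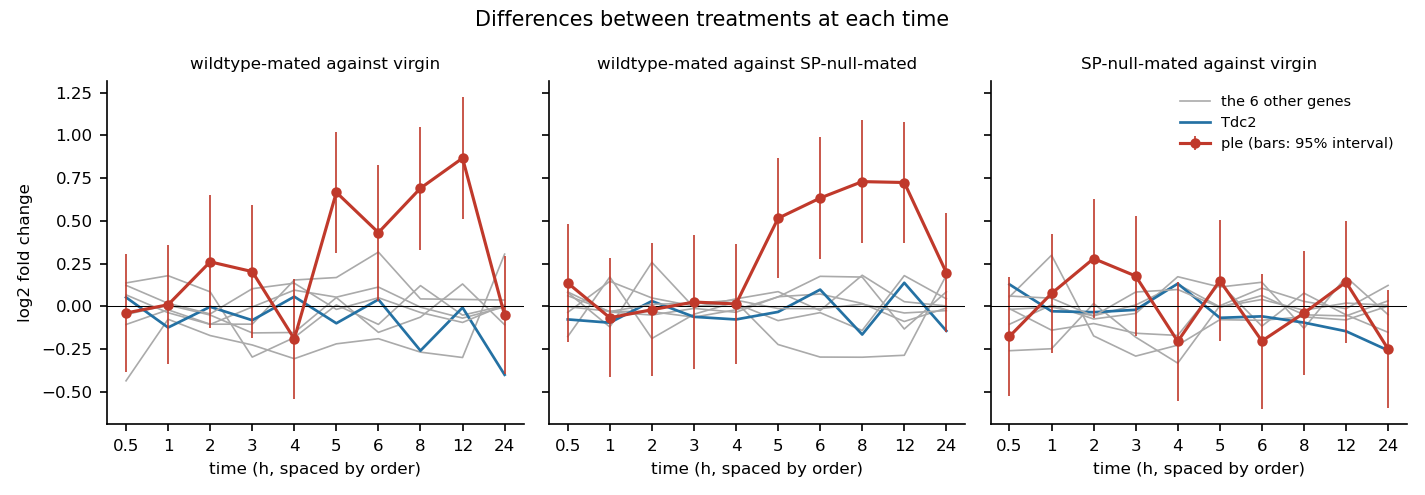
Log2 fold change of the 8 genes at each hour after mating, in panels for wildtype-mated against virgin, wildtype-mated against SP-null-mated and SP-null-mated against virgin females; ple in red with its 95% interval, Tdc2 in blue, the other 6 genes in grey. In both panels of wildtype-mated females ple rises away from the rest, to 0.87 against virgins and 0.73 against SP-null-mated females at 12 h, and Tdc2 is at -0.40 against virgins at 24 h.

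The tyramine enzyme Tdc2 was among the least abundant members, with 148 to 949 counts per library. At 24 h it stood at 9.09, 12.0 and 6.37 CPM in wildtype-mated heads, 9.69, 10.7 and 9.84 CPM in SP-null-mated heads and 12.1, 11.7 and 12.3 CPM in virgin heads. Repeats C and A of the wildtype-mated heads were the lowest of all 87 libraries, while repeat B lay within the virgin range. The log2 fold change of wildtype-mated against virgin females was -0.40 ± 0.12 (adjusted p = 0.00759 in edgeR's quasi-likelihood test), at a time when 29.2% of all genes were called. Repeats A and C are the libraries that stood apart at 24 h. Without them repeat B alone was left in that group, and the difference was 0.00. It also lost its call without repeat A (-0.41) or without repeat C (-0.21) of the whole series, and in a fit of 24 h alone. From the first hour to 24 h, Tdc2 fell by 0.45 ± 0.10 in wildtype-mated and 0.40 ± 0.10 in SP-null-mated females, beside 39.7% and 7.88% of genes called in wildtype-mated and SP-null-mated females. The log2 fold change in wildtype-mated females was -0.39 without repeat A and -0.05 with repeat B alone at 24 h, both not called. The fall in SP-null-mated females lost its call without repeat A or C. Its change over time was called in wildtype-mated (adjusted p = 0.000696, lost without repeat A) and SP-null-mated females (adjusted p = 0.00826, lost without repeat A or B). The gene Rpp25 overlaps Tdc2 on the other strand.

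Muscle markers were lowest in the same libraries as Tdc2. The 5 markers, all in the table, summed to 2175, 2910 and 1961 CPM in repeats A, B and C of wildtype-mated heads at 24 h, 3038, 2823 and 2783 CPM in SP-null-mated heads and 3783, 3043 and 2867 CPM in virgin heads. The lowest sums of all 87 libraries were again those of wildtype-mated repeats C and A. Other 24 h libraries differed in their ranks, counted from the lowest of the 87. Virgin repeat C ranked 9 for the muscle sum and 41 for Tdc2, and wildtype-mated repeat B ranked 10 and 36. Against virgins at 24 h, 3 of the 5 markers were called lower in wildtype-mated heads, beside 14.6% of all genes. Over the 30 group means, the genes whose level correlated best with Tdc2 were Tm2 (Pearson's r 0.867), Argk1 (0.863) and Actn (0.858), which encode a tropomyosin, an arginine kinase and an actinin. These means share the libraries and their scaling, and the part of muscle RNA in the values of Tdc2 was not tested.

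**Figure D5:**
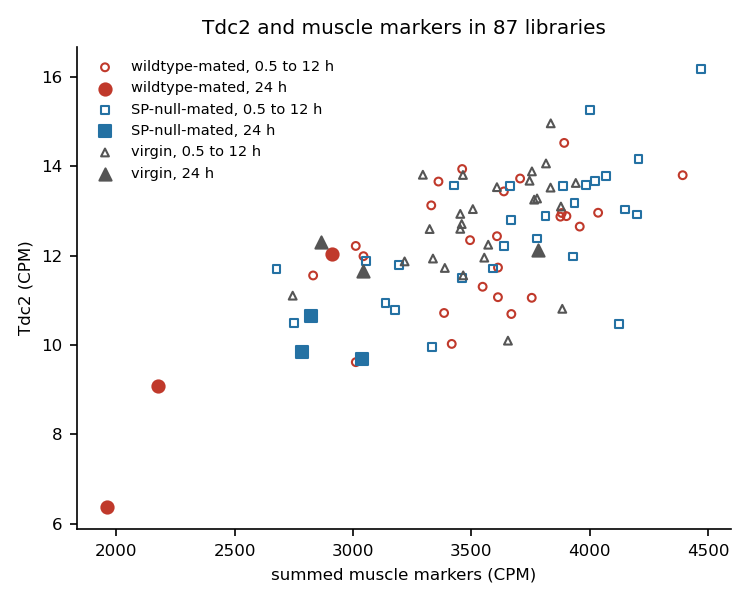
Level of Tdc2 in CPM against the summed level of 5 muscle markers in CPM, 1 point per library for wildtype-mated, SP-null-mated and virgin females, with the 24 h libraries marked. Wildtype-mated repeats C and A at 24 h lie lowest on both axes, at 6.37 and 9.09 CPM of Tdc2.

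Tbh, which completes octopamine synthesis, held 27.99 to 42.5 CPM over all libraries with a median of 37.1 CPM. It was not called over time in any treatment (adjusted p = 0.593 in wildtype-mated, 0.821 in SP-null-mated and 0.896 in virgin females, edgeR's quasi-likelihood test) or between treatments, over the 10 times or on average. The average of wildtype-mated against virgin females was 0.03 (log2), with an interval of -0.03 to 0.08. Differences at single times ran from -0.09 to 0.14. The gene CG15333 overlaps Tbh on the other strand.

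The vesicular transporter Vmat was the steadiest member, at 303 to 385 CPM over all libraries with a median of 344 CPM. Its change over time was not called (adjusted p = 0.23 in wildtype-mated, 0.263 in SP-null-mated and 0.863 in virgin females, edgeR's quasi-likelihood test). The average was 0.01 (log2) for wildtype-mated against virgin females, with an interval of -0.03 to 0.05, and its interval against SP-null-mated females was -0.04 to 0.04. Any average difference in Vmat between treatments was therefore small beside the 0.29 of ple. Vmat is overlapped on the other strand by CG13331, CG13330 and CG13332.

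The dopamine transporter DAT held 12.5 to 19.4 CPM, with a median of 15.7 CPM. It was not called over time in any treatment (adjusted p = 0.15 in wildtype-mated, 0.169 in SP-null-mated and 0.77 in virgin females, edgeR's quasi-likelihood test), and its average for wildtype-mated against virgin females was 0.04 (log2, interval -0.03 to 0.11). From the first hour to 12 h it was called in SP-null-mated females alone (0.22 ± 0.09, adjusted p = 0.0476, background 29.4% of genes), and this call was lost in 6 of 10 alternatives. The same change was larger than in virgins by 0.22 with an interval of -0.03 to 0.47, which was not called.

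The serotonin transporter SerT was called over time in both mated treatments, but its difference from virgins was not called to change with time. At 1 h it stood at 30.9, 28.4 and 31.9 CPM in wildtype-mated heads, 35.95, 27.9 and 35.7 CPM in SP-null-mated heads and 26.8, 26.9 and 26.9 CPM in virgin heads. Every mated library was above every virgin library at that time. At 3 h it stood at 21.2 and 21.5 CPM in the 2 wildtype-mated libraries, 21.6, 21.5 and 21.2 CPM in SP-null-mated heads and 27.97, 26.5 and 24.2 CPM in virgin heads, so that all mated libraries were then below the virgin ones. Neither time was called for SerT against virgins, where the background was 0.532% at 1 h and 4.51% at 3 h for wildtype-mated and 0.521% and 2.98% for SP-null-mated females. The change of SerT over time was called in wildtype-mated (adjusted p = 0.00297, lost without repeat A) and SP-null-mated females (adjusted p = 8.66e-05) in edgeR's quasi-likelihood test, and not in virgins. A test of whether the difference from virgins changed with time called SerT for neither mated treatment. The background there was 14.2% of genes for wildtype-mated and 5.62% for SP-null-mated females. In SP-null-mated females it fell from the first hour to 8 h by 0.31 ± 0.09 (log2) and to 12 h by 0.23 ± 0.09. Both falls lost their call without any single repeat.

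Counted over the members, the change over time was called for 5 of 8 in wildtype-mated females (ple, Ddc, Hn, SerT and Tdc2), beside 52.6% of all genes, for 4 of 8 in SP-null-mated females (ple, Ddc, SerT and Tdc2), beside 36.5%, and for 3 of 8 in virgins (ple, Ddc and Hn), beside 29%. These counts lay near the shares over all genes. Vmat, DAT and Tbh were called in none. The median log2 fold change over the 8 members was 0.00 for the average of wildtype-mated against virgin females and 0.01 against SP-null-mated females, beside 0.00 for all genes in both. The members with a called average, ple and Hn, had opposite signs.

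The members did not share a time pattern. Over the 30 group means, Pearson's r between ple and Ddc was -0.52, that between Vmat and DAT 0.57 and that between Vmat and Tbh 0.54, and the other pairs lay between -0.43 and 0.37. The genes closest to ple, among 8693 ranked by Pearson's r over the same means, were CG14830 (0.947), Acsx3 (0.930) and CG32369 (0.928). Hn was closest to Cyp12a4 (0.945), and Ddc to CG2017 (0.862). Lower values were reached by the best matches of Vmat (CG42346, 0.764), DAT (Hip1, 0.768), SerT (Dr, 0.726) and Tbh (Csgalnact, 0.749). All of these means share libraries, depth and scaling.

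Of 16 further genes of the amine pathways, 5 were called at any time for wildtype-mated against virgin females (Tdc1, pr, Sptr, Pcd and Catsup), by edgeR's quasi-likelihood test. The same test called 1 for SP-null-mated against virgin females (t) and 3 for wildtype-mated females set against SP-null-mated ones (Tdc1, pr and t). Beside these stood 28.6%, 7.06% and 18.5% of all genes, in the same order, and the counts lay near these shares. Tdc1 encodes the second fly tyrosine decarboxylase, known from non-neuronal tissue, and it rose where ple fell. It averaged 32.9 ± 3.74 CPM in wildtype-mated, 20.8 ± 3.17 CPM in SP-null-mated and 22.8 ± 3.40 CPM in virgin heads at 12 h (SD, n = 3 each), beside 9.52 ± 2.36 CPM in wildtype-mated, 9.09 ± 0.348 CPM in SP-null-mated and 9.54 ± 1.58 CPM in virgin heads at 0.5 h. The log2 rise from the first hour to 12 h was 1.90 in wildtype-mated, 1.12 in SP-null-mated and 1.22 in virgin females. At 12 h Tdc1 was higher in wildtype-mated than in SP-null-mated heads by 0.66 and than in virgin heads by 0.53 (log2). Without repeat C these were 0.57 and 0.45, and neither was called; without repeat B the difference from virgins was 0.38 and lost its call. At 24 h these differences were 0.89 from SP-null-mated heads and 0.52 from virgin heads, and 28.3% of all genes were then called between wildtype-mated and SP-null-mated heads. The difference from virgins at 24 h was 0.30 without repeat B and lost its call, while that from SP-null-mated heads remained called in all 10 alternatives.

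The enzymes of the pterin cofactor that the hydroxylases need gave small average differences. For wildtype-mated against virgin females, pr (purple), an enzyme of tetrahydrobiopterin synthesis, was higher by 0.12 (log2), while Sptr, the sepiapterin reductase, and Pcd, the pterin dehydratase, were lower by a log2 fold change of -0.12 and -0.13. The value of Pcd was -0.07 and not called without repeat C. At 24 h pr was higher in wildtype-mated heads by 0.34 against virgin and 0.40 against SP-null-mated heads. The first was 0.24 and not called without wildtype-mated repeats A and C at 24 h, which left repeat B alone in that group. Catsup, a negative regulator of tyrosine hydroxylase, was higher in wildtype-mated than in virgin heads at 24 h by 0.22, a call lost without repeat A or C, without wildtype-mated repeats A and C at 24 h (0.19) and in a fit of 24 h alone. The gene t (tan), which releases dopamine and histamine from their beta-alanine conjugates, fell from the first hour to 12 h in every treatment, with a log2 fold change of -0.75 in wildtype-mated, -0.63 in SP-null-mated and -0.60 in virgin females. Trhn, the neuronal tryptophan hydroxylase of serotonin synthesis, was higher in wildtype-mated heads at 24 h, by 0.24 against virgin and 0.30 against SP-null-mated heads, and both calls were lost without repeat A or B and in a fit of 24 h alone. Without wildtype-mated repeats A and C at 24 h these were 0.19 and 0.24, and neither was called.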

How the data were processed

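The deposited values are unnormalized counts of reads, for genes and for exon bins, in 1 column per library. Per the submitters' processing notes, Trimmomatic 0.39, STAR 2.7.5a, HTSeq 0.11.2, edgeR and the builds dm6 and BDGP6 were used. The strand setting is not given in the sources used here. Of 90 samples 87 were analysed; repeat C of wildtype-mated females at 2 and 3 h and of virgins at 6 h were not analysed here. Columns were matched to samples by treatment, time and repeat. Genes passing edgeR's filter (minimum count 10, minimum total 15; 9024 of 9027) were fitted with edgeR 4.0.16 in R 4.3.3: a mean for each of 30 groups, TMM scaling and robust quasi-likelihood tests, with Benjamini-Hochberg adjustment over all genes and calls at 0.05. Exon bins (13138) were tested likewise, and bin usage with edgeR's exon usage test. Comparisons with the first hour were added after the data were seen. CPM are TMM-scaled, and gene lengths and bin positions come from the BDGP6 annotation. The bin numbers followed the annotation in that 99.9% of listed bins lie in some but not all transcripts.

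The members and all lists were chosen with earlier results of these data known. The text gives every member and the genes closest in pattern. Of the pathway list it gives genes called between treatments at any time, and Trhn. Other genes of the list that were called only in other tests, among them ine, are not described. AANAT1 of that list was not used here, and 1 further gene of it is not reported here. The repeat letters pair libraries because the design states that the whole series was run 3 times; deviations of libraries of the same letter from their group means correlated at -0.229 to 0.335 (median 0.0784, above 0.1 in 36 of 84 pairs). The lowest chi-square per degree of freedom between libraries of a group was 6.68, so none were counted as 1 sample. Alternatives were DESeq2 1.42.0, its size factors, no filter, the repeat block, exon bins summed per gene, separate fits per time, each repeat left out, no 24 h, and the libraries named above left out. The tests were tested on simulated counts.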

Additional observations from a re-analysis of the deposited data

Results flagged for a closer look

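For 5 genes of the amine pathways, the difference between wildtype-mated females and another treatment changed with time after mating, by a test of the change itself over the 10 times (edgeR's quasi-likelihood test, Benjamini-Hochberg adjustment over all genes). Such a change was called for 14.2% of all genes against virgins and 11.8% against SP-null-mated females, and 1 of the 8 members, ple, was among them in both. Of the 16 further genes of the amine pathways, 3 were called in each comparison. These counts lay near the shares over all genes. Against virgins the adjusted p was 0.00482 for ple, 0.00386 for pr, 0.00805 for Catsup and 0.00968 for Tdc1. Against SP-null-mated females it was 0.029 for ple, 0.00498 for pr, 0.000742 for Tdc1 and 0.0439 for t. For ple, the value against virgins was lost without repeat A or C (adjusted p up to 0.234) and that against SP-null-mated females without any repeat (0.15 to 0.22). Against virgins pr lost its call without repeat A or B and Catsup and Tdc1 without any repeat; against SP-null-mated females pr lost it without A or B, Tdc1 without C and t without any repeat. The calls of pr and t against SP-null-mated females were also lost without wildtype-mated repeats A and C at 24 h. These are the libraries that stood apart, and repeat B alone was then left in that group. Without the 24 h time point the adjusted p of the same test was 0.378 for pr and 0.0587 for t. Both calls were lost there as well. Against virgins, those of Catsup and Tdc1 were also lost without the 24 h time point. The largest differences of ple fell at 8 and 12 h, while pr differed most at 24 h.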

How the results depend on the processing

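Of the called values of the 8 members, Tdc2 at 24 h alone changed sign, and the averages of ple in wildtype-mated against each other treatment and its fall in each treatment remained called in all 11 alternatives. With the repeats as a block (paired by the repeat letter), the members called at any time for wildtype-mated against SP-null-mated females were 2 and not 1, since Hn was added; all 140 values of single genes and bins kept their side of the threshold. Without 24 h the average gave 2 and not 1 (Hn again). Exon bins summed per gene covered 6 members. Tdc2 and DAT had no listed bin, so the calls of Tdc2 could not recur there. Nearly all summed bins lie in some but not all transcripts, so the sums are another measure than the gene counts. The count was then 1 and not 2 for wildtype-mated against virgin at any time and on average, and 1 and not 4 at single times. It was 3 and not 5 over time in wildtype-mated females, and 0 and not 1 for the change of the difference from SP-null-mated females. Among the values of single genes and bins, uncalled averages of members included, a call was lost in 2 of 106 with DESeq2, 2 of 106 with its size factors, 2 of 140 with no filter, 14 of 57 with exon sums, 9 of 17 with separate fits, 10 of 93 without 24 h, and 47, 45 and 51 of 140 without repeats A, B and C. Leaving out single repeats gave 1 to 2 at any time and on average against virgins, 1 to 3 of 4 at single times against virgins, 1 of 3 against SP-null-mated females, 1 of 3 over time in virgins, 2 to 5 of 5 over time in wildtype-mated females, and 0 to 1 and 0 for the changes of the difference from virgins and SP-null-mated females.

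Averages near 0 crossed it without a call. Without single repeats, wildtype-mated against virgin DAT was -0.0064 to 0.092 and Vmat -0.020 to 0.032; SP-null-mated against virgin ple was -0.026 to 0.049 and Vmat -0.017 to 0.034; and wildtype-mated against SP-null-mated Ddc was -0.011 to 0.047, DAT -0.020 to 0.045, Tbh -0.0035 to 0.0088, Tdc2 -0.068 to 0.0016 and Vmat -0.0029 to 0.0017. SP-null-mated against virgin ple was 0.022 without 24 h and 0.040 without virgin 4 h A. Without wildtype-mated 24 h A and C, the averages against SP-null-mated females were -0.0060 for Tbh, 0.0025 for Tdc2 and -0.0047 for Vmat, and that of Vmat was -0.0012 without 24 h, -0.0021 with DESeq2's size factors and -0.0019 with DESeq2. Tdc2 at 24 h against virgins was 0.0036 without wildtype-mated 24 h A and C, with repeat B alone left in that group. The cause was not tested. Fewer libraries also carry fewer residual degrees of freedom. Counts of Tdc2 and DAT, the lowest, limit their precision.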
